A study of Homo sapiens with 4 samples.

Results

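The HOX cluster genes are the homeobox genes of the HOXA, HOXB, HOXC and HOXD clusters, taken here as every gene probe whose symbol, split where a probe lists several genes, is one of these 4 prefixes followed by a digit. All 39 human HOX genes were found, on 45 of the 33096 gene probes of the array, and averaging of probes that share a gene ID gave 38 features of 27739. Expression was measured in LN229, an established human glioblastoma line, on 2 arrays after transfection with a non-targeting siRNA (mock knockdown) and 2 arrays after transfection with an siRNA against *SOX2*. All cells were grown in the same DMEM medium, and the study's methods describe the arrays as biological replicates with separate transfections. The comparison was designed to find genes regulated by *SOX2*, a transcription factor of neural progenitors and embryonic stem cells, in a glioma line. LN229 is a single established line in culture and not tumour tissue, and an siRNA lowers its target for a time without removing the gene.

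HOX genes encode transcription factors that give cells their position along the head-to-tail axis of the embryo. They lie in a row within each cluster, and their order there follows the order in which they are expressed along the body, from the anterior genes (paralogue groups 1 to 3) through the central genes (groups 4 to 8) to the posterior genes (groups 9 to 13). HOX proteins bind DNA together with TALE cofactors of the PBX, MEIS and PKNOX families, Polycomb group complexes keep silent HOX clusters closed, and Trithorax group and MLL complexes keep active ones open. The normal forebrain does not express HOX genes, whereas many gliomas do.

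The windows of 250 bases before the annotated start are shown for 3 members. *HOXD4* and *HOXD8* are neighbours in the HOXD cluster that were both higher on the arrays after knockdown, and *HOXB1*, whose groups overlapped, is shown because its window carries a site of the kind HOX and PBX proteins bind together (TGATNNAT, in capitals), as known from its own autoregulation. The sequences are those of RefSeq on GRCh38.p14, written 5′ to 3′ on the strand of the gene.
HOXB1 promoter, chr17:48531012-48531261 (- strand): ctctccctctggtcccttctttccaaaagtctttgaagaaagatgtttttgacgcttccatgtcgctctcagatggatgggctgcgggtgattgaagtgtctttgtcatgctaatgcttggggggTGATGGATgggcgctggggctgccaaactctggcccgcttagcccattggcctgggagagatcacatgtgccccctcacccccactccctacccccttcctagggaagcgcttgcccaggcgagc
HOXD4 promoter, chr2:176151300-176151549 (+ strand): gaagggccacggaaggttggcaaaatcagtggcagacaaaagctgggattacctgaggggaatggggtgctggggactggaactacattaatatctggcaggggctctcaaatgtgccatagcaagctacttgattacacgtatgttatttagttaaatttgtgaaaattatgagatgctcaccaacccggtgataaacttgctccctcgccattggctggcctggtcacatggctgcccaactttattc
HOXD8 promoter, chr2:176129455-176129704 (+ strand): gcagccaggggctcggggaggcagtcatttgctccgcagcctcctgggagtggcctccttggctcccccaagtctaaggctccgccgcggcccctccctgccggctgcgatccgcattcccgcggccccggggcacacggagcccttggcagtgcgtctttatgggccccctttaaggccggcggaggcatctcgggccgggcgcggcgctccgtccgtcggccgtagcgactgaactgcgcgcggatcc
RefSeq windows were matched by symbol for 20 of the 39 HOX genes. The SOX core CATTGT, searched on both strands, was in 0 of the 20, and 9.3% of the 34943 windows of the same length held it. The PBX-HOX motif TGATNNAT, searched on both strands, was in 3 of the 20 (*HOXA2*, *HOXB1* and *HOXD11*) and in 6.49% of all windows, and no window of these genes held both motifs. A gene counted if any of its windows held the motif, whereas both percentages are over single windows. *HOXA3* and *HOXA10* have several windows, and *HOXC4* and *HOXC5* share the same window. In the *HOXB1* window the match lies 125 bases before the start. These matches are letters in a window and not measured binding. The study itself mapped *SOX2* binding in LN229 by ChIP-seq and reported the consensus wwTGnwTw (w is A or T). Neither its binding regions nor that consensus was used in this search, so the count says nothing about *SOX2* binding at HOX genes.

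The signal-to-noise ratio (S/N), a score given beside each signal in the scanner data, was over 3 for 63.5% to 68.9% of gene probes per array. Every signal below is a scaled one, divided by the 75th percentile over the features of its array. *SOX2* itself gave 0.454 and 0.682 in mock cells against 0.204 and 0.145 after knockdown. It was lower on both knockdown arrays than on either mock array, at 0.308 of the mock mean (log2 difference −1.69, SE 0.28, n = 2 per group, limma adjusted p = 0.114), and a lower level per cell cannot be told apart from fewer cells with *SOX2* RNA. One label field names SW620, a colon line, whereas the sample titles and the study's methods name LN229. The source names give no line. Of 12 glioblastoma line markers 11 had S/N over 3 on both mock arrays, among them *VIM*, *CD44*, *GFAP* and *S100B*. The exception was *CHI3L1* (2.03 and 1.13). Of all 27739 features 63.3% were on in this sense. Of 12 colon epithelium markers 6 did, namely *CDX2*, *VIL1*, *LGALS4*, *TFF3*, *KRT8* and *CDH1*. The features of *KRT8* and *CDH1* are annotated to several genes. S/N on mock 1 and mock 2 was 21.07 and 14.32 for *TFF3* and 4.38 and 3.18 for *CDX2*. *KRT20*, *CDH17* and *KRT19* stayed at S/N under 3 on all 4 arrays, and *CDX1*, *EPCAM* and *GPA33* passed it on some arrays only. Neuron, fibroblast and leukocyte markers were on for 8 of 9, 5 of 8 and 3 of 8 genes on the array. The identity of the line was not tested with these counts. *FABP7*, of the glioblastoma list, was at 0.492 of the mock mean and *FAP*, of the fibroblast list, at 0.451, and the part of either in the HOX values was not tested.

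Most HOX genes were on in mock LN229 cells. A gene counted as on where at least 1 of its probes had S/N over 3 on both mock arrays, which held for 28 of 39 genes (71.8%) and for 27 of 38 features (71.1%), against 63.3% of all 27739 features. By probe the share was 29 of 45 (64.4%), against 61.5% of all probes. Genes of all 4 clusters were on together, so the line expresses anterior, central and posterior members at once.

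The HOXC cluster was the fullest, with 8 of 9 genes on and only *HOXC12* off. HOXB followed with 8 of 10, where *HOXB8* and *HOXB9* were off. In HOXA 7 of 11 genes were on, among them *HOXA5*, *HOXA7* and *HOXA10*. In HOXD 5 of 9 were on, with *HOXD3*, *HOXD9*, *HOXD11* and *HOXD12* off. The order of the clusters is a description, since no test of it was made.

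By position along the cluster, 14 of 15 central genes were on, 5 of 8 anterior genes and 9 of 16 posterior genes. *HOXB8* was the central gene that was off. Every member of paralogue groups 4, 5, 6, 7 and 10 was on, whereas both genes of group 12 were off. Of the 4 genes of group 9, which includes *HOXA9*, a gene known for its part in leukaemia, only *HOXC9* was on. *HOXC9* had S/N 47.81 and 66.81 on the mock arrays.

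**Figure D1:**
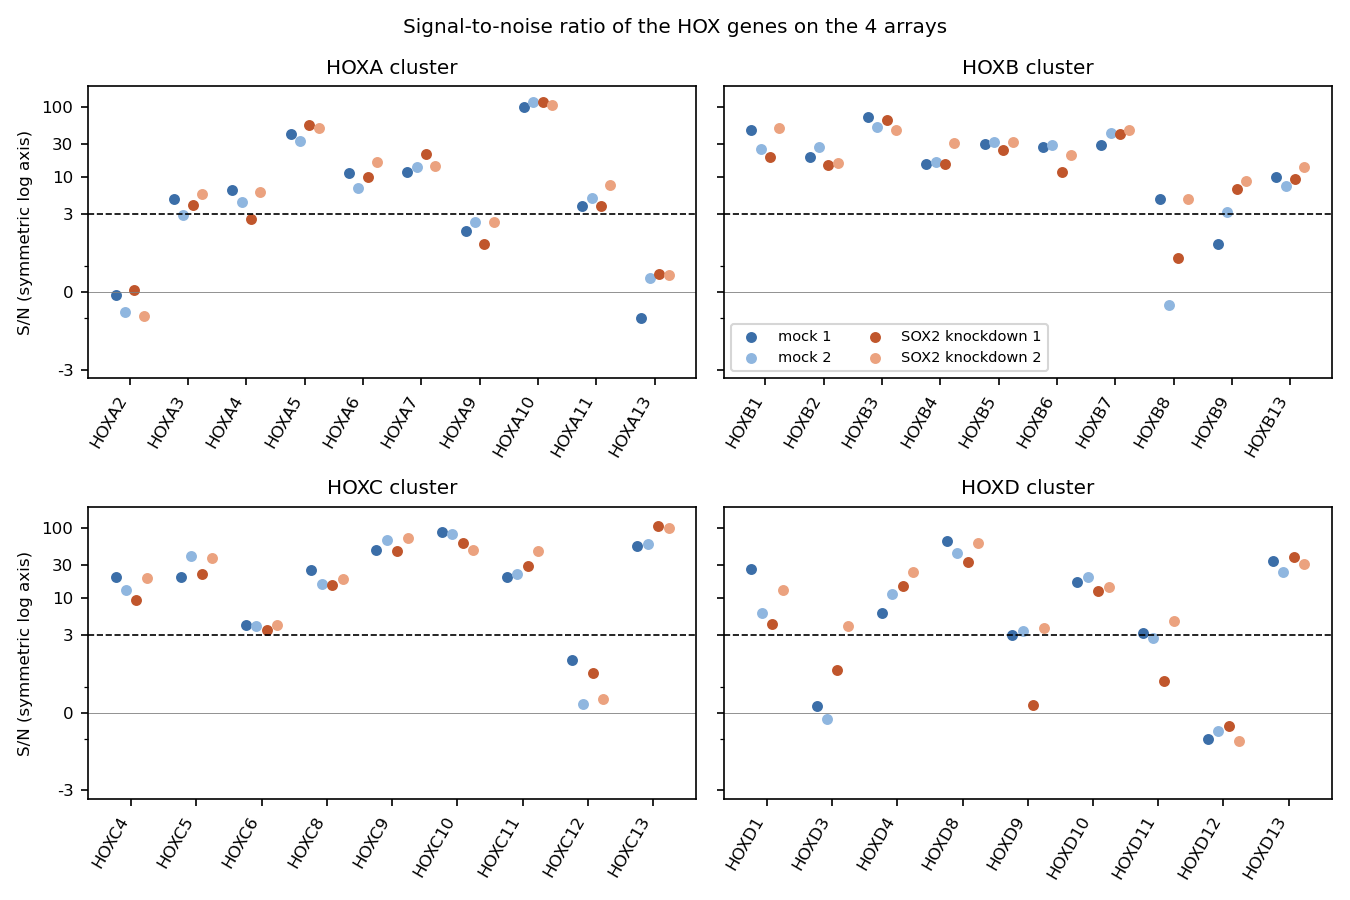
S/N (symmetric log axis, linear between −3 and 3) of 38 HOX genes on the 2 mock and 2 SOX2 knockdown arrays, by cluster, for the probe of each gene with the higher mock S/N. The dashed line marks S/N 3. HOXA10 lies near 100 on every array, HOXA2, HOXA13 and HOXD12 lie near 0, and HOXA3, HOXD9 and HOXD11 straddle the line.

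The S/N of the members differed widely. *HOXA10*, a posterior gene known from the uterus and from leukaemia, had S/N 98.92 and 119.24 in mock cells on one of its probes and 76.98 and 101.72 on the other. *HOXC10*, a gene of the lumbar spinal cord and hindlimb, reached 87.05 and 80.94. *HOXB3*, an anterior gene of the hindbrain, reached 71.98 and 52.19. *HOXD8* reached 65.55 and 43.8, and *HOXC13*, known for its role in hair and nail, 54.89 and 59.52. These genes were measured far above background on all 4 arrays. Signals are not compared between genes, because probes differ in how well they bind, as the probes of *HOXA10* itself show. One of them gave 34, 31.5, 33.6 and 29 and the other 6.29, 6.53, 5.71 and 5.32, in the order mock 1, mock 2, knockdown 1 and knockdown 2. The latter was lower on both knockdown arrays (ratio 0.861, limma adjusted p = 0.494 in the fit over single probes), and the former overlapped between groups.

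Several calls of on or off sit at the threshold. *HOXA3* had S/N 4.84 and 2.97 in mock cells. *HOXD9* had 3 and 3.43 and *HOXD11* 3.2 and 2.86, so each missed on a single array by a small margin. *HOXB8* had 4.88 on one mock array and −0.5 on the other. Just inside the threshold lay *HOXC6* with 4.18 and 3.96, *HOXA11* with 3.9 and 5.03 and *HOXA4* with 6.5 and 4.45. In contrast *HOXA2*, *HOXA13*, *HOXC12* and *HOXD12* were under 3 on each of the 4 arrays, as were both probes of *HOXA9*. The scanner marked 30 values of 10 HOX probes with a flag that goes with a signal equal to its standard deviation, and 0 of these had S/N over 3.

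After *SOX2* knockdown 29 of the 39 genes were on, and 28 of 38 features against 64% of all features. *HOXA3* and *HOXB9* were on only after knockdown and *HOXA4* only in mock cells. *HOXA4* had S/N 2.81 and 6.05 after knockdown, and *HOXA3* had 4 and 5.68. Each of the 3 missed S/N 3 on only 1 array of the group where it was off.

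Groups were compared for the 29 of 38 HOX features that passed S/N 3 on both mock arrays or both knockdown arrays, a filter that 66.3% of all features passed. *HOXB9* was the only one of the 29 past 2-fold (3.45%, against 2.38% of all 18378 features compared, of which 1.47% were higher and 0.909% lower). It was compared only through its knockdown arrays, as its mock S/N was not over 3 on both, and with S/N over 3 required on all 4 arrays the count was 0 of 26. Past 1.5-fold were 3, against 9.86% of all features, *HOXB9* and *HOXD4* higher (5.08% of all features) and *HOXD1* lower (4.78%). With limma and Benjamini-Hochberg adjustment over all 18378 features, 0 of 29 passed an adjusted p of 0.05, as did 0 of all features, and the smallest adjusted p of a HOX feature was 0.101. At an unadjusted limma p of 0.05, 4 of 29 passed (13.8%, against 17.2% of all features), *HOXB9*, *HOXC13*, *HOXD4* and *HOXD8*, all higher after knockdown (8.12% of all features).

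The 2 arrays of each group separated without overlap for 6 of the 29 features (20.7%), against 47.2% of all features. The higher ones after knockdown were *HOXB9*, *HOXC13*, *HOXD4* and *HOXD8* (21.6% of all features were separated and higher), and the lower ones *HOXB6* and *HOXD13* (25.7%). The groups overlapped for the other 23, including all 8 compared HOXA features. The median log2 difference of the 29 was 0.01, against 0 over all features, with 16 above and 13 below 0 and a range from −0.71 to 1.10. In absolute size the median was 0.14 for HOX and 0.19 for all features. HOX features within 1.25-fold numbered 23 of 29 (79.3%), against 71.9% of all.

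**Figure D2:**
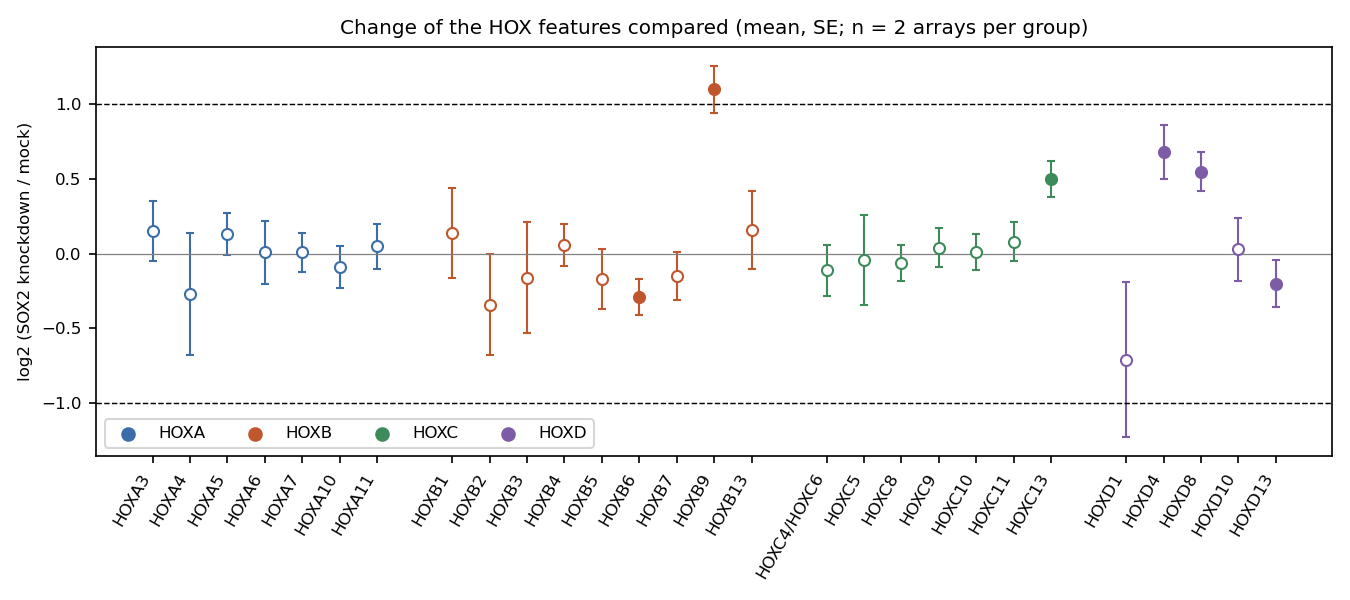
Log2 ratio of SOX2 knockdown over mock (y axis) for 28 of the compared HOX features in cluster order, with limma SE bars, n = 2 arrays per group. Filled points are the 6 features whose groups do not overlap, the dashed lines mark 2-fold, and HOXB9 at 1.10 is the only point outside them.

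*HOXB9*, a posterior gene of the thoracic region, had scaled signals of 0.0257 and 0.0311 in mock cells and of 0.0579 and 0.0637 after knockdown. Both knockdown values lay above both mock values, with a ratio of means of 2.14 and a log2 difference of 1.10 (SE 0.16, n = 2 per group, limma adjusted p = 0.101, range 0.00683 to 0.742 over the alternative settings). Only 1 of the 2 mock arrays measured it above S/N 3 (1.85 and 3.22), while both knockdown arrays did (6.78 and 8.94). In mock cells the gene thus lay at the edge of detection. With a floor of 0.05 on scaled signals its log2 difference was 0.28, with normexp background correction 0.33 with overlapping groups, and without mock replicate 1 the ratio was 1.95.

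*HOXD4* and *HOXD8*, the members whose upstream sequences are given above, are neighbours in the cluster, with *HOXD3* and *HOXD9*, which were off in mock cells, on either side. *HOXD4*, a central gene of the hindbrain and neck region, gave 0.401 and 0.525 in mock cells and 0.78 and 0.696 after knockdown. Its ratio was 1.59 (log2 difference 0.68, SE 0.18, n = 2 per group, limma adjusted p = 0.195). *HOXD8*, a central gene of the trunk, gave 0.743 and 0.837 against 1.17 and 1.14. Its ratio was 1.46 (log2 difference 0.55, SE 0.13, n = 2 per group, limma adjusted p = 0.167). Neither gene's groups overlapped, but with normexp background correction the log2 difference of *HOXD4* was 0.14 and its groups overlapped, while those of *HOXD8* stayed apart (0.38).

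*HOXC13* gave 1.54 and 1.51 in mock cells and 2.23 and 2.09 after knockdown. Its mock replicates were nearly equal, and the ratio was 1.41 (log2 difference 0.50, SE 0.12, n = 2 per group, limma adjusted p = 0.172). The other posterior HOXC genes that were compared had overlapping groups. *HOXC11* gave 0.26 and 0.296 against 0.291 and 0.294, *HOXC10* 2.79 and 2.7 against 2.73 and 2.8, and *HOXC9* 2.69 and 2.44 against 2.63 and 2.65. The log2 differences of these 3 genes were 0.08, 0.01 and 0.04. With normexp background correction the groups of *HOXC11* separated (0.19).

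Among the lower features, *HOXB6*, a central gene, gave 0.247 and 0.236 in mock cells and 0.196 and 0.198 after knockdown, a ratio of 0.816 (log2 difference −0.29, SE 0.12, n = 2 per group, limma adjusted p = 0.331). It is the mean of a probe near background and a probe well above it, which alone gave 0.485 and 0.469 against 0.387 and 0.394. *HOXD13*, a posterior gene that shapes the digits, gave 1.13 and 0.922 against 0.902 and 0.873 (ratio 0.864, log2 difference −0.20, SE 0.16, limma adjusted p = 0.614). Its groups were separated by less than its mock replicates differed, and they overlapped with normexp.

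Among the 29 compared features *HOXD1* had the largest difference below 0 and the least agreement between mock arrays. It gave 0.645 and 0.229 in mock cells and 0.223 and 0.247 after knockdown, so that its mock replicates differed 2.82-fold while its knockdown replicates differed 1.11-fold. The ratio of means was 0.537 (log2 difference −0.71, SE 0.52, n = 2 per group, limma adjusted p = 0.591). Without mock replicate 1 the log2 difference was 0.03, and without mock replicate 2 it was −1.46. The low ratio rests on the array mock 1.

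**Figure D3:**
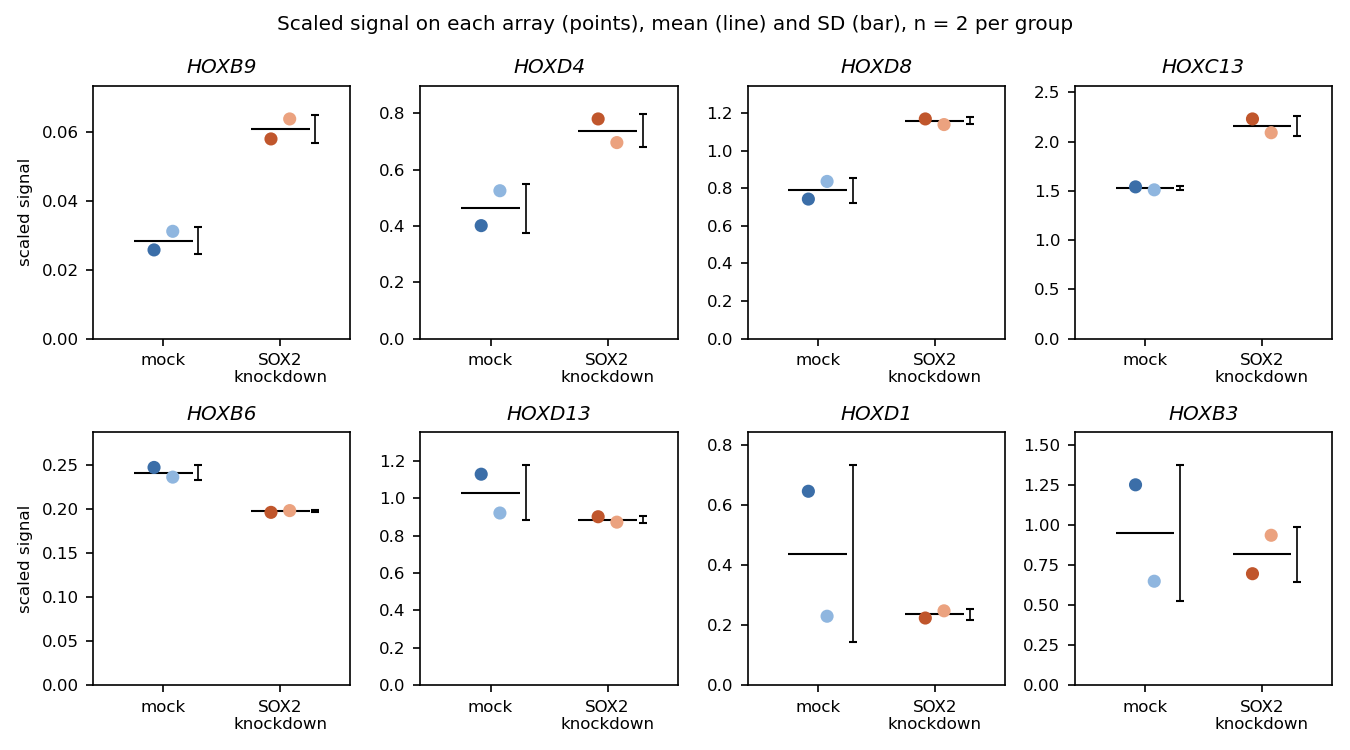
Scaled signal (relative to the 75th percentile of each array, linear axis from 0) of 8 HOX features on each of the 2 mock and 2 SOX2 knockdown arrays, with mean (line) and SD (bar beside the points). HOXB9, HOXD4, HOXD8 and HOXC13 lie higher on both knockdown arrays, HOXB6 and HOXD13 lower, and the groups of HOXD1 and HOXB3 overlap, with mock arrays that lie far apart.

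The HOXA features all overlapped between groups, although *HOXA7* and *HOXA11* separated with normexp background correction (log2 differences 0.09 and 0.39). In the order mock 1, mock 2, knockdown 1 and knockdown 2, *HOXA3* gave 0.162, 0.117, 0.148 and 0.158 and *HOXA4* gave 0.0674, 0.0438, 0.0318 and 0.0637. *HOXA6* gave 0.13, 0.099, 0.103 and 0.127. In these 3 genes mock 1 and knockdown 2 were the higher arrays of their groups. *HOXA5*, a gene of lung and neck development, gave 0.416, 0.479, 0.498 and 0.477. *HOXA7* gave 0.368, 0.338, 0.347 and 0.361, and *HOXA11*, a gene of forearm and kidney, 0.0706, 0.0849, 0.0781 and 0.0817. *HOXA10*, averaged over both its probes, gave 19.6, 18.5, 19.1 and 16.7. The log2 differences of the 8 HOXA features ran from −0.27 to 0.15.

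In HOXB the anterior genes varied more between replicates than between groups. *HOXB1*, which acts in the hindbrain, gave 0.7 and 0.443 in mock cells and 0.521 and 0.725 after knockdown, *HOXB2* gave 0.392 and 0.246 against 0.194 and 0.312, and *HOXB3* gave 1.25 and 0.648 against 0.695 and 0.935. Each was higher on mock 1 than on mock 2 and higher on knockdown 2 than on knockdown 1. *HOXB4*, known from blood stem cells, gave 0.302 and 0.293 against 0.287 and 0.335. *HOXB5* gave 0.366 and 0.491 against 0.408 and 0.348, and *HOXB7* 1.77 and 2.16 against 1.7 and 1.82. *HOXB13*, known from the prostate, gave 0.141 and 0.0891 against 0.119 and 0.132, and lies within the range of its mock arrays.

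In HOXC, *HOXC5* gave 0.994 and 0.621 in mock cells and 0.647 and 0.897 after knockdown, and *HOXC8* gave 0.186 and 0.195 against 0.178 and 0.188. The probes of *HOXC4* and *HOXC6* share a gene ID, and their joint feature gave 0.242 and 0.222 against 0.191 and 0.242. Taken singly, the *HOXC6* probe gave 0.715 and 0.667 against 0.473 and 0.674 and the *HOXC4* probe that is on gave 0.104 and 0.0959 against 0.0816 and 0.0956. The other *HOXC4* probes were not on in either group. In HOXD, *HOXD10*, a gene of spinal cord and hindlimb, gave 0.152 and 0.19 against 0.152 and 0.199, a log2 difference of 0.03.

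The distance between the mock arrays exceeded the distance between the groups for 22 of the 29 features (75.9%), against 54.4% of all features. The median absolute log2 difference between the mock replicates was 0.29 for HOX and 0.22 for all features, and between the knockdown replicates 0.15 and 0.16. The HOX features varied more than the array's features between the mock arrays and about as much between the knockdown arrays. The 9 features not compared were *HOXA2*, *HOXA9*, *HOXA13*, *HOXB8*, *HOXC12*, *HOXD3*, *HOXD9*, *HOXD11* and *HOXD12*. *HOXD3* gave 0.0273 and 0.0283 in mock cells and 0.0463 and 0.0882 after knockdown, with S/N over 3 (4.01) on knockdown 2 alone.

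**Figure D4:**
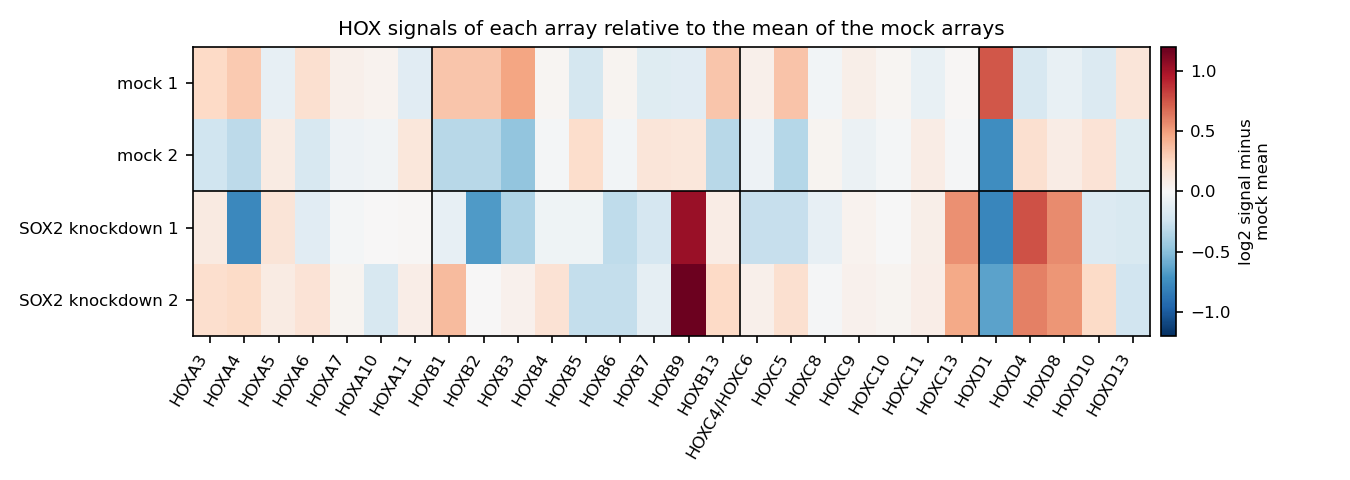
Log2 scaled signal of 28 of the compared HOX features (columns, in cluster order) on each array (rows), minus the mean of the 2 mock arrays. HOXB9, HOXC13, HOXD4 and HOXD8 are red on both knockdown rows, while HOXB1, HOXB2, HOXB3, HOXC5 and HOXD1 have opposite colours on the mock rows.

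The partners and regulators of HOX genes were compared in the same fit. Of 9 TALE cofactors 8 were compared, 0 passed 2-fold, and the median log2 difference was −0.03. *MEIS2* gave 1.03 and 1.02 in mock cells and 0.952 and 0.904 after knockdown, and *MEIS3* gave 0.258 and 0.266 against 0.222 and 0.225. *PKNOX2* gave 0.393 and 0.532 against 0.437 and 0.307. The groups of *MEIS2* and *MEIS3* did not overlap, with ratios of 0.904 and 0.854, and those of *PKNOX2* did. Of the 8 compared, 0 separated higher and 2 lower, against 21.6% and 25.7% of all features. TALE cofactors such as *MEIS1* (S/N 44.5 and 54.61) and *PBX3* (S/N 55.55 and 47.41) were on in mock cells beside the HOX genes.

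Of 26 Polycomb group genes 23 were compared, 0 passed 2-fold and the median log2 difference was 0. The groups separated for 8 higher and 7 lower genes of the 23, against 47.2% of all features, 21.6% higher and 25.7% lower. *EZH2*, the enzyme that places the repressive H3K27 mark, gave 0.546 and 0.591 in mock cells and 1.01 and 1.01 after knockdown, a ratio of 1.78 (log2 difference 0.83, SE 0.12, n = 2 per group, limma adjusted p = 0.104). *SUZ12*, its partner, gave 2.02 and 1.99 against 2.53 and 2.6, a ratio of 1.28, and *PCGF6*, of a PRC1 complex, 0.902 and 0.707 against 1.09 and 1.08, a ratio of 1.35. All 3 were separated, with limma adjusted p of 0.104, 0.253 and 0.297.

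Of 15 genes of Trithorax and MLL complexes and H3K27 demethylases, 14 were on the array, 12 were compared and 0 passed 2-fold, with a median log2 difference of −0.12. *WDR5*, a core subunit of MLL complexes, gave 0.474 and 0.513 in mock cells against 0.813 and 0.734 (ratio 1.57, limma adjusted p = 0.141). *MLLT3*, a partner of MLL fusions, gave 0.957 and 0.87 against 0.641 and 0.58 (ratio 0.669, limma adjusted p = 0.163). *PSIP1*, which tethers MLL to chromatin, gave 1.15 and 1.13 against 0.916 and 0.915 (ratio 0.803, limma adjusted p = 0.295). Members of this list thus lay on both sides, and the groups of these 3 did not overlap. Of the 12 compared, 3 separated higher and 5 lower, against 21.6% and 25.7% of all features.

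Retinoic acid and CDX factors switch on HOX genes in the embryo. Of their 17 genes 12 were compared, 0 passed 2-fold and the median log2 difference was −0.30. The receptor *RXRG* gave 0.668 and 0.785 in mock cells against 0.48 and 0.471 (ratio 0.655), and *RARB*, itself a retinoic acid target, gave 0.872 and 0.858 against 0.627 and 0.638 (ratio 0.732). *ALDH1A3*, which makes retinoic acid, gave 13.8 and 13.8 against 11.5 and 9.38 (ratio 0.757). All 3 were lower on both knockdown arrays, with limma adjusted p of 0.164, 0.189 and 0.296. Of the 12 compared, 0 separated higher and 5 lower, against 21.6% and 25.7% of all features. *CDX2*, among the 5 lower, was compared only through its mock arrays (S/N 4.38 and 3.18, against 0.2 and 1.66 after knockdown).

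Of 19 genes that border the clusters 17 were on the array, 15 were compared and 0 passed 2-fold, with a median log2 difference of 0.01 and a range from −0.42 to 0.56. *SNX11*, near HOXB, gave 1.33 and 1.39 against 2.01 and 2 (ratio 1.47). *HIBADH*, near HOXA, gave 3.36 and 3.93 against 2.68 and 2.75 (ratio 0.746), and *CALCOCO1*, near HOXC, 0.467 and 0.595 against 0.415 and 0.374 (ratio 0.743). Their limma adjusted p were 0.147, 0.256 and 0.335. Among the 15 compared, 3 separated higher and 4 lower, against 21.6% and 25.7% of all features. Of 28 ParaHOX and other developmental homeobox genes 21 were compared, and *DLX2* alone passed 2-fold, against 2.38% of all features. The groups separated for 10 higher and 5 lower of these 21 genes, against 21.6% higher and 25.7% lower of all features. The median log2 difference of this list was 0.16. *DLX2*, a forebrain gene, gave 0.106 and 0.11 in mock cells and 0.302 and 0.325 after knockdown, a ratio of 2.9 (log2 difference 1.54, SE 0.13, n = 2 per group, limma adjusted p = 0.0701). Neither of these lists had a member past the limma threshold.

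**Figure D5:**
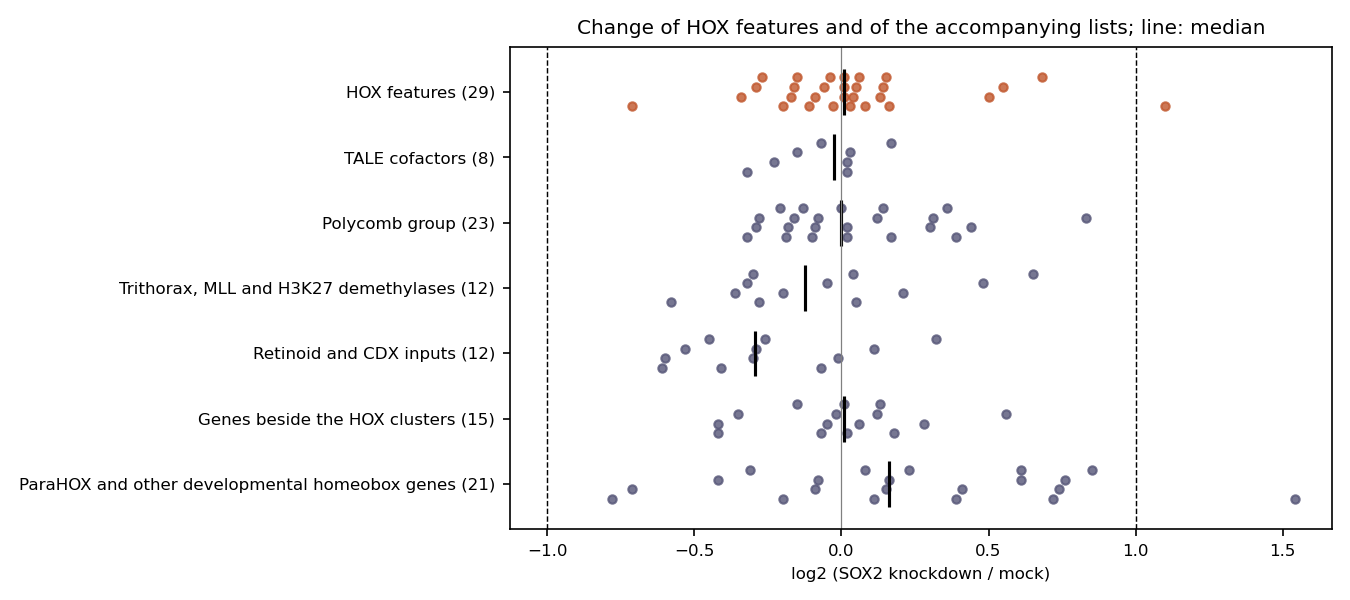
Log2 ratio of SOX2 knockdown over mock (x axis) for the 29 HOX features and the members compared of 6 accompanying lists (number in brackets), 1 point per feature, with the median as a vertical line and dashed lines at 2-fold. The HOX points lie mostly within 0.34 of 0, with HOXB9, HOXD4, HOXD8 and HOXC13 to the right and HOXD1 to the left, and DLX2 is the only listed gene beyond 2-fold.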

How the data were processed

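Total RNA was labelled with biotin and measured on Human Genome Survey arrays of Applied Biosystems, read by chemiluminescence in 1 colour, 2 arrays per group. Source names in the labels gave the groups. The deposited scanner files hold intensity columns on a linear scale and, per the file headers, the S/N as a separate score. The scanner software and what its flags stand for are not given in the sources used here. The deposited table of the series holds a ratio per probe, which the authors scaled per array and divided by the median of the probe, and served as an alternative.

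Control features and 210 probes with a flag of 5000 or more were left out. Signals and S/N of probes sharing a Celera gene ID were averaged, divided by the 75th percentile of the array, floored at 0.01 and put on the log2 scale. Of 27739 features 18378 were kept, those past S/N 3 on both mock arrays or both knockdown arrays. The 2-fold cutoff of replicate means follows the methods of the study. limma 3.58.1 (R 4.3.3; lmFit, eBayes, two-sided, no block) was fitted over all features with Benjamini-Hochberg adjustment. A check on simulated data covered the size and sign of its log2 differences and set no condition on its calls. p-values rest on 2 arrays per group, whose number limits the precision. One member is counted but its values are not reported here. The members and lists were chosen with earlier results of these data known. Named from each list were features past 2-fold, or otherwise the 3 with the smallest unadjusted p. Probe sequences were not used, so cross-hybridisation between paralogues was not tested. Array symbols are old and were matched through RefSeq names, and the files name no build. The correlation of replicate differences between groups was −0.50 over 18378 features, so the numbers do not pair the samples. Alternatives covered scaling, background, floor, filters, probes, variance model, cutoffs, replicate block and leaving out each array.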

Additional observations from a re-analysis of the deposited data

How the results depend on the processing

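The count of HOX features past 2-fold, 1 of 29, depended on the handling of low signals. It was 0 with normexp background correction, 0 with a floor of 0.05, 0 with S/N over 3 on all 4 arrays (26 features), 2 with no S/N filter (*HOXD3* added) and, at other cutoffs, 3 at 1.5-fold and 0 at 3-fold. Leaving out each array gave 0 to 2, with 0 without mock replicate 1, 2 without mock replicate 2 (*HOXD1* added) and 2 without *SOX2* knockdown replicate 1 (*HOXD3* added). Over all features the 438 past 2-fold became 184 with normexp, 288 with the higher floor, 1055 with no S/N filter, 1812 at 1.5-fold, 94 at 3-fold and 624 to 934 with an array left out. limma called 1 HOX feature, *HOXB9*, with median scaling, 1 with no further scaling and 1 with the table of the series, where it called 669, 650 and 639 of all features, and 0 in every other setting, 0 to 0 with an array left out. Under these scalings (34.7% to 36% of all features separated) and quantile normalization (47.1%), 8 HOX features had separated groups, *HOXD1* and the joint *HOXC4* and *HOXC6* feature being added as lower. A variance trend called 240 of all features and 0 of HOX, and S/N over 3 on all arrays called 3 and 0. The replicate block called 0 HOX features and 0 of all, as did a crossed pairing chosen after seeing the data. HOX features on in mock cells numbered 24 to 30 over the alternatives, 29 and 30 without a mock array. *HOXB6*, *HOXC13*, *HOXD4* and *HOXD8* kept their sign under every alternative, as did *HOXB9* under those that gave it a value (it has none with S/N over 3 on all arrays) and *HOXD13* apart from a log2 difference of 0.00 with normexp, and the other 23 changed sign at least once. The cause was not tested.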
